A study of Mus musculus with 12 samples.

Results

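The hippocampus of mice in the FMT-SP group was compared with that of mice in the FMT-DSS group, gene by gene, in 8 of the 12 RNA-seq libraries of the series. All 4 FMT-SP libraries and all 4 FMT-DSS libraries were taken by their labels, with no library left out, and the 4 FMT-CON libraries stand beside them as the third group. FMT is fecal microbiota transplantation, the transfer of gut microbes in stool from a donor to a recipient. The series is about the neuropeptide substance P (SP) in mice after FMT, and its design text calls the FMT-SP group FMT-DSS+SP. FMT was thus common to every group, and FMT-DSS and FMT-SP share the DSS part of their name. The labels do not spell out CON or DSS, and they do not give the strain, age or sex of the mice, the dose of substance P, or whether donors or recipients received it. No mice without a transplant are among the samples. The labels number the libraries 1 to 4 in each group without saying that each is a separate animal, so the p-values measure only the spread between these samples.

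Substance P is a short peptide of the tachykinin family, made from the Tac1 transcript and acting mainly through the neurokinin-1 receptor encoded by Tacr1. The hippocampus, a brain region central to memory, also responds strongly to circulating glucocorticoids, which act on receptors that bind DNA and switch on genes such as Sgk1, Fkbp5 and Per1. Inflammatory signals in brain reach genes through NF-kB, a family of transcription factors that inhibitors of the IkB type hold in the cytoplasm until the IKK kinase complex marks those inhibitors for destruction.

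The deposited values are FPKM, fragments normalised to transcript length and to the mapped total, and every change below is the mean of the 4 FMT-SP libraries minus the mean of the 4 FMT-DSS libraries on the log2(FPKM + 1) scale, with its standard error (SE) from limma, a linear model fitted to all genes at once. This scale understates the change of genes with low values. The tests covered 12559 of 27978 genes, those whose mean FPKM over the 12 libraries reached 1. The steps in the low FPKM values put the depth at an estimated 31600000 to 37300000 fragments per library in FMT-DSS and 33600000 to 37000000 in FMT-SP. Mitochondrially encoded genes took 29.0% of the FPKM in FMT-DSS 4, 23.97% in FMT-SP 4 and 27.7% in FMT-CON 4. In the libraries numbered 1 to 3 of the 3 groups they took 15.9 to 20.3%. Markers of the hippocampus were present in all 8 libraries. Neurod2, a transcription factor of excitatory forebrain neurons, read 25.7 to 33.5 FPKM in FMT-DSS and 31.0 to 37.5 FPKM in FMT-SP. C1ql2, a secreted protein of dentate granule cells, read 13.9 to 24.9 FPKM in FMT-DSS and 18.8 to 24.9 FPKM in FMT-SP.

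The libraries also held different amounts of tissue that borders the hippocampus. The 15 choroid plexus markers, led by the thyroid hormone carrier transthyretin (Ttr), summed to 1946, 3201, 1408 and 2414 FPKM in FMT-DSS 1 to 4. In FMT-SP 1 to 4 they summed to 55.8, 1976, 4236.5 and 87.8 FPKM. Choroid plexus RNA was thus high in every FMT-DSS library and in FMT-SP 2 and 3, and low in FMT-SP 1 and 4, where 1 of the 15 markers, Tmem72, was at 0 in FMT-SP 1. Ttr itself read 1798, 2877, 1290 and 2302 FPKM in FMT-DSS and 14.7, 1835, 3779 and 51.7 FPKM in FMT-SP. Striatal markers summed to 223, 108, 455 and 107 FPKM in FMT-DSS and to 82.6, 80.8, 164 and 90.7 FPKM in FMT-SP. They were highest in FMT-DSS 3 and FMT-DSS 1, and within FMT-SP in FMT-SP 3. Thalamic markers ran from 62.7 to 116 FPKM in FMT-DSS and from 43.8 to 236 FPKM in FMT-SP, the highest again in FMT-SP 3, and ependymal markers from 46.0 to 95.3 and from 49.3 to 149.8 FPKM. Meningeal and fibroblast markers summed to 1313 FPKM in FMT-DSS 2 and to 1337 FPKM in FMT-DSS 4, against 435 to 749 FPKM in the other 6 libraries. Most of the sum in FMT-DSS 2 and FMT-DSS 4 was Ptgds. Among single markers, Ptgds, a prostaglandin synthase of the meninges, read 1175 FPKM in FMT-DSS 2 and 1260.0 FPKM in FMT-DSS 4, against 378 to 647 FPKM in the other 6 libraries, and Mgp, a matrix protein, 29.0 to 57.6 FPKM in all 8. Enpp2, an enzyme that makes lysophosphatidic acid and is abundant in choroid plexus, read 353 FPKM in FMT-SP 3 and 29.4 FPKM in FMT-SP 4. The ependymal list's Pltp, a lipid transfer protein, and Rarres2, the chemerin precursor, were highest in FMT-SP 3, at 59.8 and 21.1 FPKM. So were the calcium-binding protein gene Calb2, at 77.9 FPKM, and the kinase gene Prkcd, at 49.8 FPKM, of the thalamic list. Neocortical markers differed less, from 71.8 to 93.4 FPKM in FMT-DSS and from 66.7 to 101 FPKM in FMT-SP. Hypothalamic and pituitary markers summed to 5.18 to 27.6 FPKM in the 8 libraries, with 1 to 4 of 14 members at 0, and growth hormone (Gh) was at most 19.9 and prolactin (Prl) at most 2.32 FPKM. Of the neocortical list the transcription factor gene Tbr1 ran from 5.84 to 15.0 FPKM and the membrane protein gene Lamp5 from 12.3 to 33.5 FPKM over the 8 libraries. No other neighbouring list had a member at 0 in these 8 libraries.

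**Figure D1:**
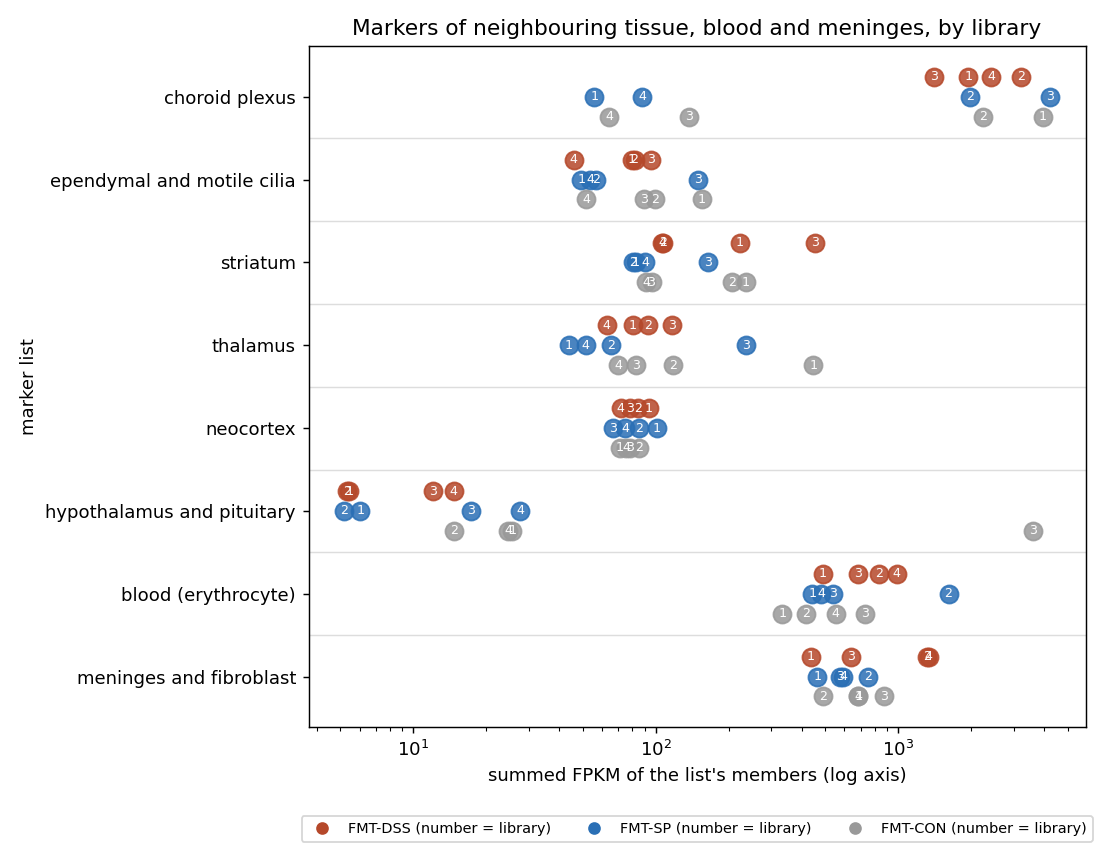
Summed FPKM of 8 marker lists (horizontal log axis) in each library, coloured by group and numbered as in the labels. Choroid plexus markers lie between 1408 and 3201 FPKM in FMT-DSS but split in FMT-SP between 55.8 and 87.8 FPKM in libraries 1 and 4 and 1976 and 4236.5 FPKM in libraries 2 and 3.

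A pair of FMT-DSS libraries stood apart from the other 6. FMT-DSS 4 gave the highest or lowest of the 8 values for 52.7% of tested genes and FMT-DSS 2 for 33.7%, against 11.5 to 25.2% for each other library, where an even share would be 25%. The median SD within a group, on the log2 scale, was 0.22 in FMT-DSS and 0.16 in FMT-SP, and 72.5% of tested genes had the larger SD in FMT-DSS. For many of the described values, but not for all, the value without this pair of libraries is also given.

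**Figure D2:**
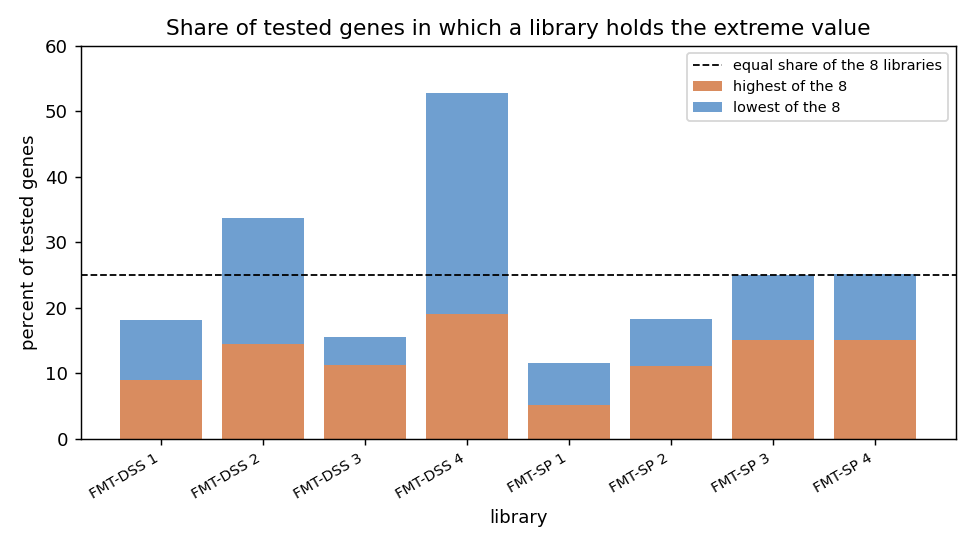
Share of tested genes, in percent on the vertical axis, for which each of the 8 libraries holds the highest or lowest value, with a dashed line at the 25% of an even share. FMT-DSS 4 at 52.7% and FMT-DSS 2 at 33.7% exceed the other 6 libraries, which lie between 11.5 and 25.2%.

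No gene passed the threshold of an adjusted p under 0.05 (limma, Benjamini-Hochberg adjustment; 0 of 12559 tested genes, a called share of 0%; smallest adjusted p = 0.999). Without adjustment 314 genes had a p under 0.05, 2.50% of those tested, 159 higher (1.27%) and 155 lower (1.23%) in FMT-SP. With the library number as a block the unadjusted count was 885. The 4 FMT-SP values lay wholly above the 4 FMT-DSS values for 71 genes (0.565%) and wholly below for 89 (0.709%), 160 in all (1.27%). By chance alone a share of 0.05 of genes would have an unadjusted p under 0.05. A share of 0.0286 would have groups of 4 and 4 without overlap. The 2.50% and 1.27% of the main fit lie below these shares. Mean changes were positive for 7403 genes (58.9%) and negative for 5156 (41.1%), with a median of 0.03. Scaling by median ratios gave 6363 positive and 6196 negative changes, and leaving out FMT-DSS 2 and FMT-DSS 4 gave 5671 and 6888, so the excess of positive changes depended on both. The median 95% confidence interval reached 0.31 to either side of a gene's change, and for 96.4% of tested genes the whole interval lay within 1 log2 unit of 0. The genes described next were chosen by their place in this fit or by their list, so their changes are a description of these libraries and none passed the adjusted threshold. Of the 314 genes, 311 kept their direction without FMT-DSS 2 and FMT-DSS 4, and 30 still had an unadjusted p under 0.05. The 314 were chosen by p in a fit that included the kept libraries. The 95 of them without overlap could not change sign when libraries were left out, so the kept direction is no independent support.

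Several components of the NF-kB pathway had lower means in FMT-SP, and Rela had the smallest p of all tested genes. Rela, which encodes the p65 transactivating subunit of NF-kB (GRCm38 chr19:5637483-5648130, plus strand), read 8.71, 7.94, 9.55 and 7.34 FPKM in FMT-DSS 1 to 4. In FMT-SP 1 to 4 it read 5.34, 5.497, 6.09 and 5.95 FPKM. The groups did not overlap, and the means were 8.38 ± 0.961 and 5.72 ± 0.357 FPKM (SD, n = 4 each). FMT-CON ran from 5.10 to 7.32 FPKM. The change was -0.48 (SE 0.11), and -0.59 without FMT-DSS 2 and FMT-DSS 4. Rela thus did not depend on that pair of libraries. Ikbkg, the regulatory subunit NEMO of the IKK complex, read 3.78, 3.82, 3.88 and 2.86 FPKM in FMT-DSS and 2.78, 1.06, 1.45 and 2.35 FPKM in FMT-SP, a change of -0.69 (SE 0.18). These groups also did not overlap, although FMT-DSS 4 at 2.86 and FMT-SP 1 at 2.78 FPKM nearly met. The catalytic subunit gene Chuk read 10.6, 8.97, 10.2 and 9.74 FPKM in FMT-DSS and 6.61, 5.53, 8.94 and 9.89 FPKM in FMT-SP (change -0.34, SE 0.17). Here FMT-SP 1 and FMT-SP 2 were low and FMT-SP 4 lay within the FMT-DSS range.

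Nfkbia encodes the inhibitor IkB-alpha and is itself a target of NF-kB and of glucocorticoids. It read 14.8, 38.9, 26.9 and 28.3 FPKM in FMT-DSS and 16.1, 17.2, 13.8 and 19.3 FPKM in FMT-SP, a change of -0.61 (SE 0.27). FMT-DSS 1 lay among the FMT-SP values and the other FMT-DSS libraries above them. Of the 17 subunits and regulators listed, 12 were tested, 4 with higher and 8 with lower means in FMT-SP, and 3 of the 12 were lower at an unadjusted p under 0.05, where 1.23% of all tested genes were. The median change of the 12 was -0.09, against 0.03 over all tested genes. The core subunit gene Nfkb1, chosen here after its values were seen, had a change of 0.01 (SE 0.12). The list's summed level was 103, 124, 114 and 114 FPKM in FMT-DSS and 92.1, 90.4, 92.8 and 101 FPKM in FMT-SP, so the summed levels did not overlap.

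Inflammatory genes downstream of NF-kB were mostly at low levels. Of 14 listed targets only 4 reached the filter; Il1b, Cxcl1 and Ccl2, which encode a cytokine and a pair of chemokines, did not. Il1b was at most 0.138 FPKM in FMT-DSS and 0.190 FPKM in FMT-SP. Cxcl1 was at 4.89 FPKM and Ccl2 at 2.24 FPKM in FMT-DSS 2, and both were under 1 FPKM in the other 7 libraries. Icam1, an adhesion molecule of activated endothelium, read 0.986, 9.57, 1.17 and 6.79 FPKM in FMT-DSS and 0.890, 1.27, 1.23 and 0.346 FPKM in FMT-SP (change -1.20, SE 0.46). High Icam1 was found in FMT-DSS 2 and FMT-DSS 4 alone, and without them the change was -0.13.

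Genes that glucocorticoids induce had lower means in FMT-SP in all 19 cases tested. Of these, 12 were lower at an unadjusted p under 0.05, against 1.23% of tested genes, and 3 did not overlap, against 0.709%. The median change was -0.58. Without FMT-DSS 2 and FMT-DSS 4, 18 of the 19 were lower, the median was -0.29, and 1 of the 19 had an unadjusted p under 0.05, against 0.661% of tested genes. The list was assembled with earlier results of these data known and is no independent evidence of its direction. The mean level of the list in each library, centred on its mean over the 12 libraries, was 0.05, 0.82, 0.22 and 0.66 log2 units in FMT-DSS 1 to 4 and 0.01, -0.05, -0.67 and -0.21 in FMT-SP 1 to 4. FMT-DSS 2 and FMT-DSS 4 were high, FMT-SP 3 was low, and FMT-DSS 1 and FMT-SP 1 were nearly level. In FMT-CON the same level ran from -0.50 to 0.07.

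Pdk4 encodes a kinase that shuts carbohydrate out of mitochondrial oxidation (chr6:5483351-5496309, minus strand). It read 3.80, 4.47, 5.72 and 4.93 FPKM in FMT-DSS and 2.68, 3.16, 2.27 and 1.38 FPKM in FMT-SP. Every FMT-DSS value lay above every FMT-SP value, and the change of -0.78 (SE 0.21) was the same without FMT-DSS 2 and FMT-DSS 4. Klf15, a transcription factor of amino acid and lipid metabolism, read 5.04, 8.30, 6.12 and 7.61 FPKM in FMT-DSS and 4.91, 4.94, 3.18 and 3.71 FPKM in FMT-SP (change -0.58, SE 0.16). Its groups also did not overlap, but the gap between FMT-DSS 1 and FMT-SP 2 was 5.04 against 4.94 FPKM, and the change was -0.35 without the pair of libraries. Sgk1, the serum and glucocorticoid regulated kinase that acts on ion channels and transporters, read 37.7, 55.7, 42.4 and 52.2 FPKM in FMT-DSS and 30.7, 35.0, 17.3 and 26.0 FPKM in FMT-SP. It was the third member without overlap, with a change of -0.79 (SE 0.31) that was -0.58 without FMT-DSS 2 and FMT-DSS 4. FMT-CON overlapped both groups, at 12.3 to 39.3 FPKM.

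Other members depended more on single libraries. Cdkn1a, the cell cycle inhibitor p21, read 15.3, 63.2, 13.2 and 69.0 FPKM in FMT-DSS and 12.2, 15.4, 5.75 and 7.48 FPKM in FMT-SP, a change of -1.60 (SE 0.50) that was -0.53 without FMT-DSS 2 and FMT-DSS 4. Txnip, an inhibitor of thioredoxin and of glucose uptake that is not on this list, read 10.4, 31.0, 15.8 and 20.1 FPKM in FMT-DSS and 11, 8.39, 6.63 and 8.45 FPKM in FMT-SP (change -0.997, SE 0.30; -0.54 without the pair). For both genes FMT-DSS 1 lay inside or next to the FMT-SP range. Fkbp5, a co-chaperone that dampens the glucocorticoid receptor and was chosen here after its values were seen, read 25.3, 40.8, 23.3 and 28.3 FPKM in FMT-DSS and 27.5, 22.4, 15.5 and 17.7 FPKM in FMT-SP. Its ranges overlapped, and the change was -0.48 (SE 0.18). The metallothionein Mt1, which binds zinc and copper, read 207, 419.6, 224 and 472 FPKM in FMT-DSS and 234, 175, 154 and 301 FPKM in FMT-SP (change -0.57, SE 0.30). All 7 tested genes of the corticosteroid receptors, their chaperones, coactivators and activating enzyme had higher means, none at an unadjusted p under 0.05, with a median of 0.15. Without FMT-DSS 2 and FMT-DSS 4 the median was 0.0020, with 4 of the 7 higher. The glucocorticoid receptor gene Nr3c1 read 10.2, 6.54, 6.63 and 3.14 FPKM in FMT-DSS and 8.48, 9.07, 9.95 and 4.91 FPKM in FMT-SP (change 0.30, SE 0.31).

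The clock genes overlapped with this list through Per1. In the core clock, CLOCK and BMAL1 activate period, cryptochrome and nuclear receptor genes whose products feed back on them. Per1, a period repressor that glucocorticoids also induce, read 7.35, 16.4, 10.5 and 14.4 FPKM in FMT-DSS and 6.90, 7.69, 4.99 and 8.55 FPKM in FMT-SP (change -0.67, SE 0.21). FMT-DSS 1 lay within the FMT-SP range and the other FMT-DSS libraries above it. Ciart, a repressor of the CLOCK and BMAL1 complex, read 4.64, 15.4, 7.29 and 16.8 FPKM in FMT-DSS and 4.27, 4.76, 2.92 and 6.46 FPKM in FMT-SP (change -0.99, SE 0.33). Without FMT-DSS 2 and FMT-DSS 4 the change of Per1 was -0.30 and that of Ciart -0.33. Nr1d1, the nuclear receptor REV-ERB-alpha, was chosen here after its values were seen and read 22.8, 66.3, 23.0 and 31.2 FPKM in FMT-DSS and 21.7, 30.7, 25.8 and 22.7 FPKM in FMT-SP, so that FMT-DSS 2 alone stood far above the rest. Of 18 tested clock genes 14 had lower means, with Per1 and Ciart the 2 at an unadjusted p under 0.05 (1.23% of all tested genes), and the median change was -0.16. The activator genes were among the 4 with higher means, Bmal1 at 0.07 and Clock at 0.16. The time of day at which tissue was taken is not given in the labels, and its part in these differences was not tested.

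**Figure D3:**
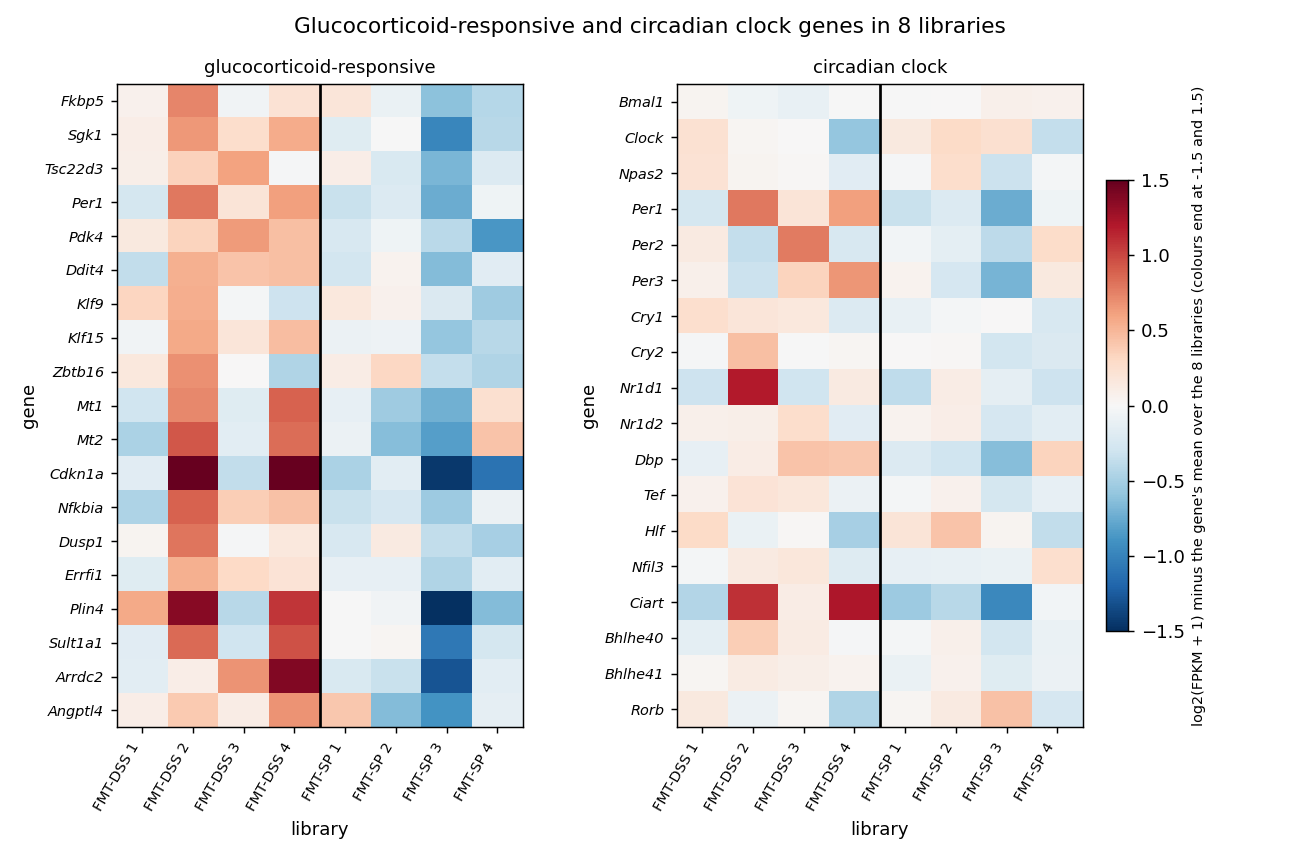
Log2(FPKM + 1) of 19 glucocorticoid-responsive and 18 clock genes (rows) in the 8 libraries (columns), each minus the gene's mean over these libraries, with red above and blue below it. FMT-DSS 2 and FMT-DSS 4 hold most of the deep red cells, such as Cdkn1a at 63.2 and 69.0 FPKM, and FMT-SP 3 most of the deep blue.

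The sequence before the start of 4 of these genes is shown because both lists are defined by regulators with known DNA motifs. Each window shown holds a match, whereas most windows of either list hold none. Of the 4 only Sgk1 holds the glucocorticoid motif, and Klf15, of the glucocorticoid-responsive list, is shown for its clock motif. The windows are the 250 bases before a RefSeq transcript start (GRCm38.p6), 5′ to 3′ on the gene's strand, and capitals mark the motif. In Sgk1 the capitals mark the palindromic glucocorticoid response element, AGAACA and TGTTCT with any 3 bases between them. In the other 3 they mark the E-box CACGTG that CLOCK and BMAL1 bind, which is also palindromic, so both strands were covered. The Sgk1 window lies at chr10:21993640-21993889 on the plus strand, and its match begins 189 bases before the start. This window also holds an E-box, left in lower case, and the windows of the other Sgk1 starts held neither motif. The Ciart window lies at chr3:95882229-95882478 on the minus strand, with 3 E-boxes that begin 116, 58 and 44 bases before the start. The Per1 window lies at chr11:69098699-69098948 on the plus strand, with 1 E-box that begins 166 bases before the start. The window of the other Per1 start held no E-box. The Klf15 window lies at chr6:90462326-90462575 on the plus strand, with 2 E-boxes that begin 228 and 172 bases before the start.
Sgk1: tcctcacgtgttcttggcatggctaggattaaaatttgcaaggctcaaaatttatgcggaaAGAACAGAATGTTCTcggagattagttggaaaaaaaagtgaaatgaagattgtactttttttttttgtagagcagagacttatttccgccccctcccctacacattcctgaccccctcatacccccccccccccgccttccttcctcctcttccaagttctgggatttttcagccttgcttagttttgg
Ciart: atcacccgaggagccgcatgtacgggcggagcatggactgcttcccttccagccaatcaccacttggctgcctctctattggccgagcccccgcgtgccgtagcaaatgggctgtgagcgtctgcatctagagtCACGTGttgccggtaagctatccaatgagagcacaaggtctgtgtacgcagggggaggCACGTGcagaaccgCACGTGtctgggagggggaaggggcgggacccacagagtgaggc
Per1: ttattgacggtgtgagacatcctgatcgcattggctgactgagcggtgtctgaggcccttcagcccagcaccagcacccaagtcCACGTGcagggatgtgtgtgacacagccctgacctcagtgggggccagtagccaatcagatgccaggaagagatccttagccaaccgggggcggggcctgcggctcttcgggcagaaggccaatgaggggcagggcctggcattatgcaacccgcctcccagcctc
Klf15: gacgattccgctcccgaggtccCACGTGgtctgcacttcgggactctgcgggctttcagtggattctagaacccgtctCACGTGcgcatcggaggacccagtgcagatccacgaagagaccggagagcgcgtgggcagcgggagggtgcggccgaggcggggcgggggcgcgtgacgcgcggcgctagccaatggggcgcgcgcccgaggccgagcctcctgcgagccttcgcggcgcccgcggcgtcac
The response element occurred in 3 of 32851 such windows (0.00913%), 1 of them among the 27 windows of the glucocorticoid-responsive genes (3.70%). The E-box occurred in 1978 of all windows (6.02%), in 6 of the 22 windows of clock genes (27.3%) and in 5 of the 27 windows of glucocorticoid-responsive genes (18.5%). A match describes the letters of the window and not binding in these samples.

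Among genes of neuronal signalling, several had higher means in FMT-SP. Camk1, a kinase switched on by calcium and calmodulin (chr6:113334124-113343984, minus strand), read 22.2, 19.7, 18.4 and 20.4 FPKM in FMT-DSS and 26.2, 24.9, 25.7 and 28.6 FPKM in FMT-SP. The groups did not overlap, FMT-CON ran from 25.9 to 33.9 FPKM, and the change was 0.37 (SE 0.10) with or without FMT-DSS 2 and FMT-DSS 4. Of 14 tested calcium/calmodulin kinases 9 had higher and 5 lower means, and Camk1 was the 1 higher at an unadjusted p under 0.05, against 1.27% of all tested genes. With FMT-DSS 2 and 4 left out, 2 of the 14 were, against 0.175% of all tested genes, and with the library number as a block also 2, against 4.54%. Grm2, a presynaptic metabotropic glutamate receptor that lowers transmitter release, read 15.6, 11.4, 17.7 and 9.91 FPKM in FMT-DSS and 21.7, 19.96, 18.1 and 23.7 FPKM in FMT-SP. FMT-DSS 3 at 17.7 and FMT-SP 3 at 18.1 FPKM were adjacent, and the change of 0.61 (SE 0.17) was 0.31 without FMT-DSS 2 and FMT-DSS 4. Of 7 tested receptors of this family 6 had higher means, with a median of 0.24 that was -0.13 without that pair.

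GABA-A receptors are the chloride channels of fast inhibition, and 10 of their 12 tested subunits had higher means in FMT-SP. Gabra2 encodes an alpha subunit and read 20.9, 28.8, 22.7 and 21.7 FPKM in FMT-DSS and 34.6, 32.9, 31.2 and 29.6 FPKM in FMT-SP. The groups did not overlap, and the change was 0.44 (SE 0.16), or 0.54 without FMT-DSS 2 and FMT-DSS 4. FMT-CON spanned both groups, from 22.2 to 40.6 FPKM. The beta subunit gene Gabrb2 read 19.9, 24.1, 11.7 and 11.7 FPKM in FMT-DSS and 28.3, 30.9, 28.8 and 16.5 FPKM in FMT-SP (change 0.63, SE 0.29). FMT-SP 4 fell inside the FMT-DSS range. These 2 of 12 were higher at an unadjusted p under 0.05, against 1.27% of all tested genes, and 1 of 12 had groups without overlap, against 0.565%. The median change of the 12 was 0.25 and was 0.04 without the pair.

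All 5 tested neurotrophin and receptor genes had higher means in FMT-SP, with a median of 0.22 that was 0.07 without the pair. Bdnf, the brain-derived neurotrophic factor, read 4.72, 3.03, 4.52 and 2.79 FPKM in FMT-DSS and 5.25, 4.54, 4.74 and 5.77 FPKM in FMT-SP. FMT-DSS 1 lay among the FMT-SP values while FMT-DSS 2 and FMT-DSS 4 were low, and the change of 0.37 (SE 0.16) was 0.11 without them. Ntf3, neurotrophin 3, read 1.92, 1.72, 2.42 and 2.56 FPKM in FMT-DSS and 2.59, 2.56, 3.14 and 3.51 FPKM in FMT-SP (change 0.33, SE 0.16). Its lowest FMT-SP value, 2.56 FPKM, met the highest FMT-DSS value. Nt5e encodes the ectoenzyme CD73, which makes adenosine outside cells (chr9:88327197-88372092). It read 1.92, 2.61, 2.67 and 1.55 FPKM in FMT-DSS and 1.20, 1.18, 1.498 and 0.978 FPKM in FMT-SP. Its groups did not overlap, and the change of -0.51 (SE 0.14) was -0.57 without FMT-DSS 2 and FMT-DSS 4. Among the 10 tested genes of adenosine production, clearance and reception, 5 had higher and 5 lower means, and Nt5e was the 1 lower at an unadjusted p under 0.05, against 1.23% of all tested genes. With the pair left out, 3 were higher and 7 lower, 2 of them at an unadjusted p under 0.05, against 0.661%. The adenosine list shares Adora2a with the striatal list, and the FMT-DSS libraries then kept held the highest striatal markers. The part of striatal tissue in this count was not tested.

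**Figure D4:**
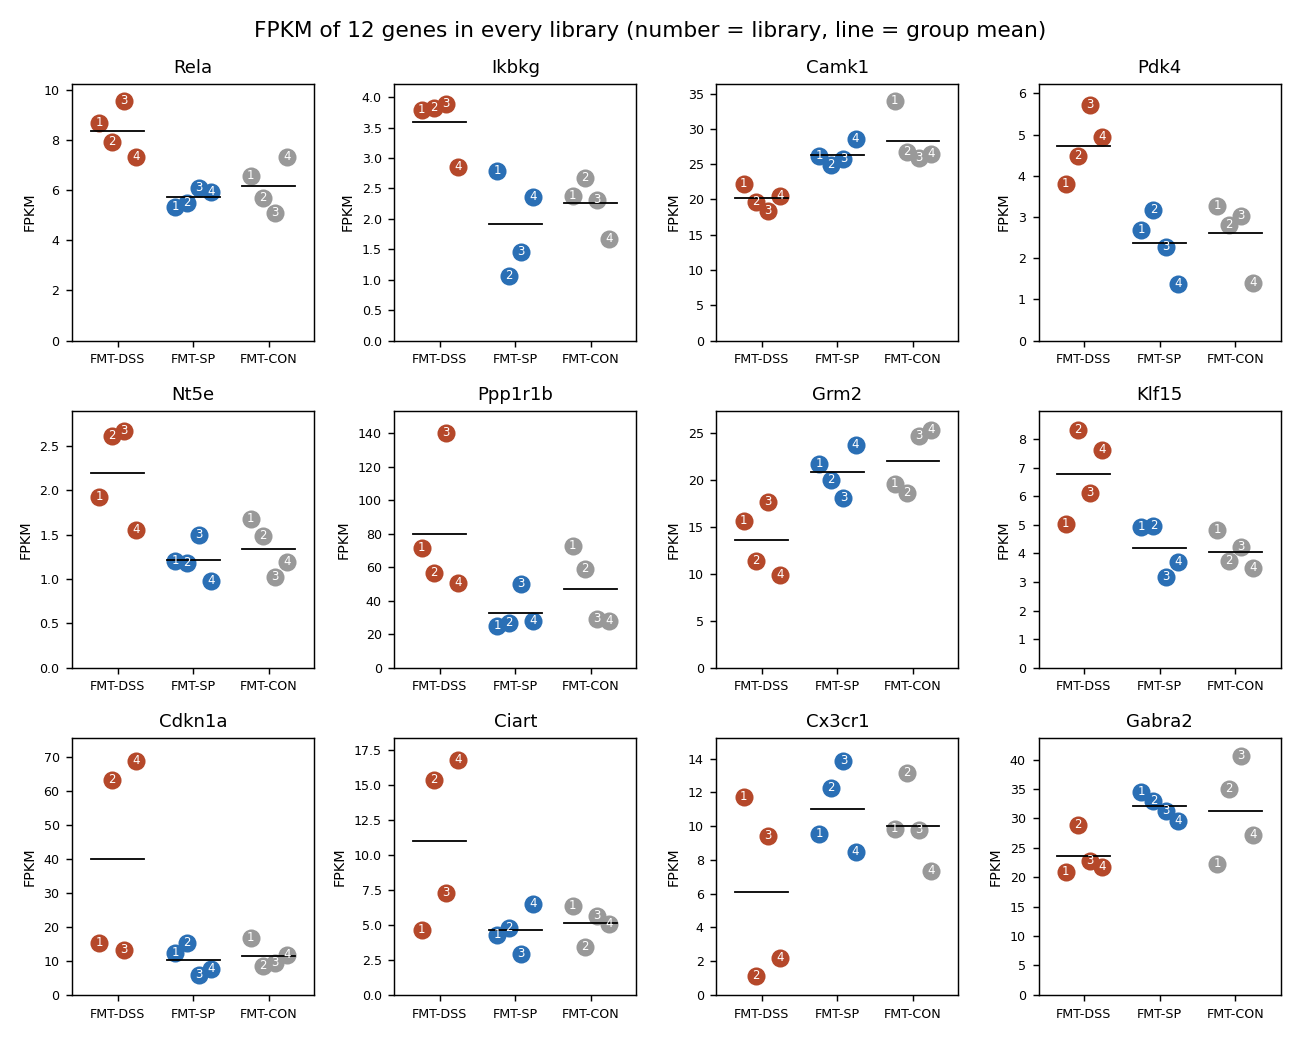
FPKM (vertical axes from 0) of 12 genes in every library, numbered as in the labels, with lines at the group means. Rela and Camk1 separate FMT-DSS from FMT-SP without overlap (Rela 7.34 to 9.55 against 5.34 to 6.09 FPKM), whereas for Cdkn1a and Cx3cr1 FMT-DSS 2 and FMT-DSS 4 lie apart from the other libraries.

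Genes of resting microglia, the immune cells of brain tissue, had higher means in FMT-SP in all 11 tested cases, with a median change of 0.51. Cx3cr1, the fractalkine receptor, read 11.7, 1.12, 9.39 and 2.20 FPKM in FMT-DSS and 9.53, 12.2, 13.9 and 8.44 FPKM in FMT-SP (change 1.11, SE 0.47). Tmem119, a membrane protein specific to microglia in brain, read 6.77, 2.83, 8.17 and 3.13 FPKM in FMT-DSS and 8.10, 6.64, 8.04 and 7.72 FPKM in FMT-SP (change 0.57, SE 0.24). FMT-DSS 2 and FMT-DSS 4 were low, and FMT-DSS 1 and FMT-DSS 3 lay within the FMT-SP range or, for Tmem119 in FMT-DSS 3, just above it. In bulk tissue fewer cells of a type and less RNA per cell cannot be told apart. These 2 of 11 were higher at an unadjusted p under 0.05, against 1.27% of all tested genes, and with the library number as a block 7 of 11 were, against 4.54%. The median was -0.03 without FMT-DSS 2 and FMT-DSS 4. Complement, in turn, did not follow the resting genes. C1qa, which microglia also make, read 30.7, 59.2, 33.2 and 36.7 FPKM in FMT-DSS and 28.2, 27.9, 33.0 and 44.1 FPKM in FMT-SP. C4b read 5.15, 14.9, 6.42 and 13.5 FPKM in FMT-DSS and 4.67, 6.43, 5.60 and 6.25 FPKM in FMT-SP, a change of -0.60 (SE 0.26) that was -0.01 without the pair. All 6 tested complement genes had lower means, with a median of -0.15 that was 0.07 without the pair.

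Genes of reactive astrocytes were high in FMT-DSS 2 more than in any other library. Lcn2, lipocalin 2, an acute-phase protein that binds siderophores, read 0.545, 285, 4.73 and 30.6 FPKM in FMT-DSS and 1.33, 3.20, 1.63 and 8.91 FPKM in FMT-SP (change -2.07, SE 1.46). FMT-CON 3 and FMT-CON 4 held 23.6 and 22.5 FPKM, against 0.226 and 0.256 FPKM in FMT-CON 1 and FMT-CON 2, so Lcn2 differed between libraries of 1 group in each case. Gfap, the intermediate filament of astrocytes, read 37.2, 73.9, 44.0 and 30.6 FPKM in FMT-DSS and 39.2, 34.5, 49.6 and 42.2 FPKM in FMT-SP (change -0.10, SE 0.22). Of 9 tested genes of this list 8 had lower means, with a median of -0.32 that was 0.02 without FMT-DSS 2 and FMT-DSS 4. The summed meningeal markers were also high in that pair, as given above, mostly through Ptgds. Of the 10 tested members of that list 6 had higher and 4 lower means in FMT-SP, with a median of 0.047. Erythrocyte markers summed to 489.6, 836, 683 and 988 FPKM in FMT-DSS and to 442, 1613, 539 and 480.5 FPKM in FMT-SP. The beta-globin gene Hbb-bs was highest in FMT-SP 2 at 682 FPKM, and next highest in FMT-DSS 4 at 377 FPKM and FMT-DSS 2 at 371 FPKM. The part of either in the microglial, astrocytic and glucocorticoid values was not tested.

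**Figure D5:**
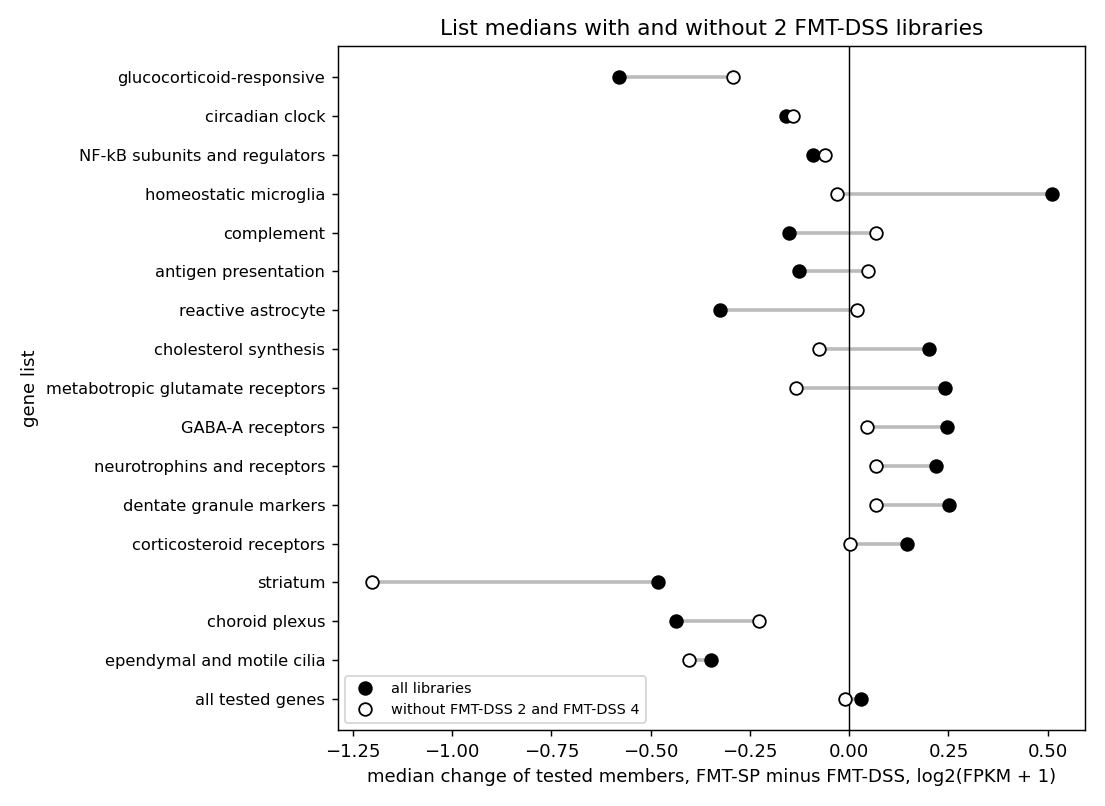
Median change of the tested members of 16 lists and of all tested genes, on the log2(FPKM + 1) scale, with all libraries (filled) and without FMT-DSS 2 and FMT-DSS 4 (open). The glucocorticoid-responsive median goes from -0.58 to -0.29 and keeps its sign, whereas the microglial median goes from 0.51 to -0.03 and the striatal median from -0.48 to -1.20.

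Ppp1r1b, a striatal marker, was lower in every FMT-SP library than in every FMT-DSS library. It encodes DARPP-32, a phosphatase inhibitor enriched in striatal projection neurons (chr11:98348404-98357796). It read 71.5, 56.4, 140.4 and 50.6 FPKM in FMT-DSS and 25.1, 26.8, 50.2 and 27.8 FPKM in FMT-SP (change -1.21, SE 0.37). FMT-DSS 4 at 50.6 and FMT-SP 3 at 50.2 FPKM were adjacent, and FMT-CON split into 73.0 and 58.8 FPKM in libraries 1 and 2 and 28.9 and 27.9 FPKM in libraries 3 and 4. Penk, the enkephalin precursor, read 50.4, 14.4, 125 and 20.6 FPKM in FMT-DSS and 17.0, 12.4, 39.3 and 19.1 FPKM in FMT-SP. Adora2a, the adenosine receptor of striatal neurons that project to the globus pallidus, read 4.33, 0.274, 12.8 and 0.638 FPKM in FMT-DSS and 0.496, 0.447, 2.69 and 0.402 FPKM in FMT-SP. Penk and Adora2a were highest in FMT-DSS 3 and FMT-DSS 1, and in FMT-DSS 2 and FMT-DSS 4 they did not exceed FMT-SP 3. With FMT-DSS 2 and 4 left out, the change of Ppp1r1b was -1.66, and the part of striatal tissue in it was not tested beyond the covariates given next. All 14 tested striatal markers had lower means in FMT-SP, with a median of -0.48, and Ppp1r1b was the 1 lower at an unadjusted p under 0.05, against 1.23% of all tested genes. With the pair left out, the median was -1.20 and 12 of the 14 were, against 0.661%. With the choroid plexus and striatal marker levels as covariates the change of Ppp1r1b, which is itself on the striatal list, was -0.76 and that of Rela -0.43.

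With those 2 covariates 15 genes passed an adjusted p under 0.05 in limma, 12 higher and 3 lower in FMT-SP, at adjusted p = 0.0136 to 0.0398. In all the higher genes but Kcne2, FMT-DSS 2 and FMT-DSS 4 held the lowest values of the FMT-SP and FMT-DSS libraries. In Icam1 and Apod they held the highest. The lower genes were Icam1, Ppp1r1b and Apod, a lipid carrier of glia and fibroblasts. Apod read 113, 408, 103 and 304 FPKM in FMT-DSS and 69.3, 131, 134 and 74.9 FPKM in FMT-SP, again highest in FMT-DSS 2 and FMT-DSS 4. Among the higher genes was Tek, the angiopoietin receptor TIE2 of endothelium, which read 2.08, 1.12, 2.33 and 0.931 FPKM in FMT-DSS and 2.78, 3.70, 3.84 and 2.13 FPKM in FMT-SP. FMT-SP 4 lay between FMT-DSS 1 and FMT-DSS 3, and the change was 0.67 (SE 0.22) without and 0.91 with the covariates. Tmem119 was also among them, with a change of 0.73. So was Kcne2, a choroid plexus marker that is itself part of a covariate, with a change of 0.86 against 0.03 without the covariates. Trib2, a pseudokinase, read 9.64, 4.28, 9.74 and 4.05 FPKM in FMT-DSS and 10.03, 9.97, 12.2 and 10.3 FPKM in FMT-SP. Its change was 0.90 with the covariates, 0.64 without them, and 0.12 without FMT-DSS 2 and FMT-DSS 4, which held its lowest values.

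The substance P precursor gene overlapped between the groups. Tac1 read 11.3, 5.68, 26.7 and 4.35 FPKM in FMT-DSS and 5.60, 5.52, 8.97 and 8.62 FPKM in FMT-SP (change -0.39, SE 0.43), with a change of -1.21 without FMT-DSS 2 and FMT-DSS 4. It was highest in FMT-DSS 3 and FMT-DSS 1, the libraries with the highest striatal markers, and Tac1 is expressed by striatal projection neurons. Tacr1, its receptor, was under the filter, at 0.413, 0.540, 1.04 and 0.180 FPKM in FMT-DSS and 0.183, 0.425, 0.827 and 0.392 FPKM in FMT-SP. All 5 tested members of the tachykinin list had lower means, with a median of -0.12, and none was at an unadjusted p under 0.05. With FMT-DSS 2 and 4 left out, the median was 0.035, with 3 of the 5 higher. The part of striatal tissue in the Tac1 values was not tested.

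Cholesterol synthesis genes showed how far 2 libraries carried a list. Sqle, squalene epoxidase, read 17.3, 11.1, 15.9 and 7.61 FPKM in FMT-DSS and 16.4, 16.1, 18.4 and 15.0 FPKM in FMT-SP (change 0.38, SE 0.20). FMT-DSS 2 and FMT-DSS 4 were low and the other FMT-DSS libraries lay within the FMT-SP range. Of 22 tested genes 18 had higher means, none at an unadjusted p under 0.05. With the library number as a block 3 of the 22 were higher at that p, against 4.54% of all tested genes. The median of 0.20 was -0.07 without the pair. Among all 159 genes higher at an unadjusted p under 0.05, FMT-DSS 2 and FMT-DSS 4 held the 2 lowest of the 8 values for 120, or 75.5%, against 14.7% of all tested genes. Among the 155 lower genes they held the 2 highest values for 98, or 63.2%, against 6.90% of all tested genes.

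The other genes of small p came mostly from outside the lists. Chia1, an acidic chitinase, read 1.72, 2.30, 2.31 and 2.30 FPKM in FMT-DSS and 0.796, 1.18, 1.36 and 1.32 FPKM in FMT-SP (change -0.55, SE 0.14). Emilin2, an extracellular matrix glycoprotein, read 2.51, 1.92, 1.95 and 1.81 FPKM in FMT-DSS and 0.826, 1.09, 1.36 and 0.632 FPKM in FMT-SP (change -0.63, SE 0.18). Neither gene overlapped between groups. Lingo3, a neuronal leucine-rich repeat protein, read 8.98, 10.8, 11.01 and 8.66 FPKM in FMT-DSS and 8.57, 6.49, 6.31 and 7.57 FPKM in FMT-SP (change -0.40, SE 0.11), also without overlap. The lowest FMT-DSS value, 8.66 FPKM, and the highest FMT-SP value, 8.57 FPKM, were adjacent. Ankrd13a, which binds ubiquitin chains on internalised receptors, read 20.1, 18.0, 18.4 and 21.8 FPKM in FMT-DSS and 14.6, 15.3, 14.7 and 14.2 FPKM in FMT-SP (change -0.38, SE 0.11), also without overlap. Herpud1, a component of protein degradation at the endoplasmic reticulum, read 23.7, 27.6, 31.1 and 29.2 FPKM in FMT-DSS and 21.4 to 22.0 FPKM in FMT-SP (change -0.34, SE 0.12). Its groups did not overlap. Of 18 tested genes of the unfolded protein response it was the 1 lower at an unadjusted p under 0.05, against 1.23% of all tested genes. The median of the 18 was 0.13 with 12 higher, and -0.092 with 6 higher without FMT-DSS 2 and FMT-DSS 4.

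A further set of 7 genes of small p had smaller changes without FMT-DSS 2 and FMT-DSS 4. Spsb1, an adaptor of ubiquitin ligases, read 8.45, 10.97, 7.58 and 11.1 FPKM in FMT-DSS and 7.18, 5.83, 5.88 and 5.32 FPKM in FMT-SP (change -0.57, SE 0.15; -0.36 without the pair). Dbndd2, which binds casein kinase, read 48.8, 49.96, 42.9 and 81.5 FPKM in FMT-DSS and 32.6, 36.3, 39.8 and 35.4 FPKM in FMT-SP (change -0.58, SE 0.17; -0.34 without the pair). Znfx1, an antiviral helicase, read 7.001, 8.68, 6.36 and 9.12 FPKM in FMT-DSS and 5.35, 5.80, 5.42 and 4.33 FPKM in FMT-SP (change -0.49, SE 0.15; -0.31 without the pair). None of the 3 overlapped between groups. Carhsp1, an RNA-binding protein, read 27.1, 27.8, 23.3 and 43.3 FPKM in FMT-DSS and 16.9, 19.3, 23.3 and 17.2 FPKM in FMT-SP (change -0.61, SE 0.18; -0.38 without the pair), with FMT-DSS 3 and FMT-SP 3 level. The other 3 were higher in every FMT-SP library. Fam43b read 8.55, 6.32, 8.78 and 6.46 FPKM in FMT-DSS and 9.86, 9.56, 10.1 and 10.8 FPKM in FMT-SP (change 0.39, SE 0.11; 0.20 without the pair). Tmem141, a membrane protein, read 10.9, 7.80, 9.76 and 9.79 FPKM in FMT-DSS and 12.2, 12.2, 11.8 and 13.6 FPKM in FMT-SP (change 0.35, SE 0.10; 0.24 without the pair). Wdr5b, a WD-repeat protein, read 2.86, 1.97, 2.21 and 2.21 FPKM in FMT-DSS and 3.02, 3.16, 3.17 and 3.36 FPKM in FMT-SP (change 0.34, SE 0.10; 0.25 without the pair).

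Oligodendrocyte and vascular genes close the set. Hapln2, a link protein of the nodes of Ranvier, read 26.0, 28.2, 21.6 and 45.7 FPKM in FMT-DSS and 13.8, 17.0, 21.4 and 18.4 FPKM in FMT-SP (change -0.71, SE 0.24). FMT-DSS 3 at 21.6 and FMT-SP 3 at 21.4 FPKM were adjacent without overlap, FMT-DSS 4 stood above the rest, and the change was -0.42 without the pair. Of 13 tested myelin genes 5 had higher and 8 lower means, with a median of -0.08. With the pair left out, all 13 were lower, with a median of -0.35, and with the marker covariates the median was 0.27. Ccn1, a matricellular protein induced by injury and stretch, read 2.57, 13.3, 4.29 and 8.94 FPKM in FMT-DSS and 2.15, 2.35, 1.62 and 2.39 FPKM in FMT-SP (change -1.21, SE 0.40). Again FMT-DSS 2 and FMT-DSS 4 were highest, FMT-DSS 1 lay just above the FMT-SP range, and the change was -0.48 without the pair. Ifitm6, an interferon-induced transmembrane protein of myeloid cells, read 0.253, 13.1, 0.352 and 1.34 FPKM in FMT-DSS, and in FMT-SP it was listed at 0 in library 1 and at 0.0503 to 0.0554 FPKM in the others. Its change of -1.40 (SE 0.59) was -0.32 without the pair. Slco1a4, a transporter of the blood-brain barrier, read 15.4, 5.95, 12.5 and 8.44 FPKM in FMT-DSS and 16.9, 18.0, 15.7 and 14.0 FPKM in FMT-SP (change 0.64, SE 0.23). The lowest values were in FMT-DSS 2 and FMT-DSS 4, FMT-DSS 1 lay within the FMT-SP range, and the change was 0.20 without the pair.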

How the data were processed

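Hippocampal RNA from 12 mouse samples in 3 groups of 4 was sequenced, and the authors deposited 1 table of FPKM values per gene and library, with no counts. HISAT2 2.0 and the genome build mm8 are named, per the submitters' processing notes, without a stated role, and the sources used here do not give the counter or annotation. FPKM is relative to the total mapped fragments, so a library in which a few genes take a large share gives all other genes lower values.

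Here FPKM was taken to log2 with a pseudocount of 1, and genes whose mean FPKM reached 1 were fitted in limma 3.58.1 (R 4.3.3) with 1 mean per group over all 12 libraries, a mean-variance trend and two-sided tests. Benjamini-Hochberg adjustment took in the 12559 genes tested, and 0.05 was the threshold. The script was tested on simulated data. An exact permutation test of 4 against 4 libraries cannot give a p below 0.0286, so none was used for single genes. Depth was estimated from steps in low FPKM values, of which 39.6 to 42.7% lay within 0.05 of a whole fragment, where 10% would by chance; 1 fragment in a transcript of 2000 bases is then worth 0.0134 to 0.0158 FPKM.

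The text names the 20 genes of smallest p with a gene name, the 8 largest changes without overlap, up to 4 members of smallest p of each list described, the 2 most abundant markers of each neighbouring tissue, and Tac1 and Tacr1, except for genes that are not reported here. Other members it names were chosen after their values were seen. The 43 lists and the comparison itself were chosen with earlier results of these data known. The deviations of FMT-SP and FMT-DSS libraries of the same number correlated at 0.36, 0.35, 0.11 and 0.69 for numbers 1 to 4. Those of different numbers ran from -0.55 to 0.28. FMT-SP 3 correlated more with FMT-DSS 1 (0.20) than with FMT-DSS 3, so a shared number did not go with the higher value throughout. A fit with the number as a block was run as an alternative, and the labels do not say what a number marks. Alternatives also covered the pseudocount, filter, scaling, array weights, marker covariates and left-out libraries. Gene positions come from GENCODE vM21 (GRCm38) by symbol and promoter windows from RefSeq (GRCm38.p6). Hba-a1 and Hba-a2 are near-identical copies whose split is uncertain.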

Additional observations from a re-analysis of the deposited data

Results flagged for a closer look

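In 10 of 92 groups of 4 values checked (25 named genes and the mean levels of lists), 1 library lay far from the other 3; chance flags about 1 in 20 groups. FMT-SP 3 stood apart for Ppp1r1b at 50.2 FPKM (others 25.1 to 27.8) and for the pseudokinase gene Trib2 at 12.2 FPKM (others 9.97 to 10.3). It also stood apart for the mean centred level of striatal markers, 0.29 log2 units against -0.57 to -0.50, and of ependymal markers, 0.91 against -0.69 to -0.43. FMT-SP 4 was low for GABA-A receptor genes, at -0.23 against 0.16 to 0.20. Ifitm6 was listed at 0 in FMT-SP 1 and at 0.0503 to 0.0554 FPKM in the other FMT-SP libraries. By the depth estimate such values rest on a few fragments at most, so this flag is a step near the floor. Within FMT-DSS, Ifitm6 was at 13.1 FPKM in FMT-DSS 2 against 0.253 to 1.34 FPKM. Chia1 was at 1.72 FPKM in FMT-DSS 1 against 2.30 to 2.31 FPKM, and Ikbkg at 2.86 FPKM in FMT-DSS 4 against 3.78 to 3.88 FPKM. The mean level of choroid plexus markers was 1.03 in FMT-DSS 2 against 0.07 to 0.18 in the other FMT-DSS libraries.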

How the results depend on the processing

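No gene passed the adjusted threshold with another pseudocount, filter or scaling, with array weights, with the replicate block or without any library, and 15 did with marker covariates. Genes at an unadjusted p under 0.05 numbered 536 with a filter of 0.1 FPKM and 908 with none, where more genes were tested, 885 with the replicate block and 2113 with marker covariates, against 314. Leaving out 1 library gave 149 (FMT-DSS 4) to 798 (FMT-DSS 1), with 159 without FMT-DSS 2 and 794 without FMT-DSS 3. There were 105 without FMT-DSS 2 and FMT-DSS 4 and 167 without the libraries numbered 4. Genes without overlap numbered 275 and 392 with the weaker filters, 265 to 577 with 1 library left out, 769 without FMT-DSS 2 and FMT-DSS 4 and 671 without the libraries numbered 4, against 160; fewer libraries make separation easier. The share of higher genes among those at an unadjusted p under 0.05 was 50.6%, and 40.4% with array weights, 64.4% with the replicate block, 69.1% with marker covariates, 20.95% without FMT-DSS 2 and FMT-DSS 4, and 38.7% (without FMT-SP 3) to 69.3% (without FMT-DSS 3) with 1 library left out. Without FMT-DSS 2 and FMT-DSS 4 the medians reversed for microglia (-0.031), complement (0.066), reactive astrocytes (0.021) and antigen presentation (0.046). So did those for cholesterol synthesis (-0.075), metabotropic glutamate receptors (-0.13), tachykinins (0.035) and the unfolded protein response (-0.092). Other lists reversed too, among them mitochondrially encoded genes (0.12), interneuron markers (-0.062) and thalamic markers (-0.094). The cause was not tested. With 1 library left out the complement median ran from -0.31 to 0.033 (without FMT-DSS 2) and the GABA-A median from -0.018 (without FMT-DSS 4) to 0.38. With marker covariates the medians were 0.0091 for striatum and 0.11 for choroid plexus, whose markers make up the covariates, and 0.089 for ependyma, whose markers do not. The 25 genes taken for smallest p or for largest change without overlap kept their direction in each alternative run. They were chosen by this same fit. Groups that do not overlap cannot change sign when a library is left out, so this is no independent support.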

Other observations

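Dentate gyrus and neurogenesis genes had higher means in FMT-SP in most cases, as did 58.9% of all tested genes. Of 12 tested dentate granule markers 10 were higher, with a median change of 0.25 that was 0.07 without FMT-DSS 2 and FMT-DSS 4; 1 of 12 was higher at an unadjusted p under 0.05, against 1.27% of all tested genes, and 6 were with the library number as a block, against 4.54%. Hes5, a Notch target of neural stem cells, read 1.39, 0.548, 1.03 and 0.383 FPKM in FMT-DSS and 1.45, 1.39, 1.82 and 1.41 FPKM in FMT-SP (change 0.48, SE 0.18). Its lowest values were in FMT-DSS 2 and FMT-DSS 4. Neurod1, a transcription factor of immature granule neurons, read 7.03, 5.95, 7.24 and 6.17 FPKM in FMT-DSS and 9.85, 7.76, 8.16 and 8.24 FPKM in FMT-SP (change 0.32, SE 0.13), with no overlap. Without FMT-DSS 2 and FMT-DSS 4 the change of Neurod1 was 0.22. Of 10 tested neurogenesis genes 7 had higher means, near the share over all tested genes, and 5 had without FMT-DSS 2 and FMT-DSS 4. At an unadjusted p under 0.05, 3 of the 10 were higher, against 1.27% of all tested genes. Without that pair 0 were, against 0.175%. The median change of the 10 was 0.105, and 0.018 without that pair.

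Immediate early genes, which neurons switch on with activity, split evenly, with 8 of 17 tested higher and 9 lower and a median of -0.03. Arc, a synaptic protein gene of this class chosen after its values were seen, read 52.5, 4.45, 49.2 and 13.6 FPKM in FMT-DSS and 27.9, 37.1, 24.7 and 35.3 FPKM in FMT-SP. FMT-DSS 1 and FMT-DSS 3 lay above and FMT-DSS 2 and FMT-DSS 4 below every FMT-SP library, so the group means, with a change of 0.57 (SE 0.62), hide a spread within FMT-DSS. The sign of this change thus depended on FMT-DSS 2 and FMT-DSS 4. Egr1, a transcription factor of the same class, had the same order, at 41.7, 15.4, 42.8 and 17.6 FPKM in FMT-DSS against 22.2 to 35.5 FPKM in FMT-SP. Without FMT-DSS 2 and FMT-DSS 4 the median of the list was -0.28, with 16 of 17 members lower.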
